A study of Mus musculus with 12 samples.

Results

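Serum bivalent sites are genomic sites that carry H3K4me3 and H3K27me3 together in mouse embryonic stem cells grown in serum with LIF. They were taken as the site class averaged in the 2 of 4 deposited tables whose names hold that class, 1 table per mark. The tables give no list of sites. Under the scaling described with the processing, the smallest number of sites that fits the values is 2590, and whole multiples up to 7 times that number fit too. The smallest fitting numbers of the 3 site classes of the series add up to 36170, so this total is inferred too. The cells were stably transfected with the ppy-cagg-ires-puro vector, either empty (labelled WT and vector control, here vector cells) or encoding netrin-1, a secreted guidance protein (netrin-1 cells). Each mark was profiled by chromatin immunoprecipitation and sequencing in 3 libraries per cell line, 12 in all. Both cell lines share the serum medium and the transfection. Nothing in the labels ties the replicates to separate transfections or cultures, so every p-value refers to the spread among libraries, and that spread may be technical.

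H3K4me3 is laid down at active and poised promoters by trithorax-type methyltransferases, in stem cells mostly over CpG islands. H3K27me3 is laid down by Polycomb repressive complex 2, whose product is also bound by the complex, so that the mark can spread along chromatin. Promoters of developmental regulators that are silent or weakly transcribed in stem cells are the best known carriers of both marks. How the 2 marks are arranged around the same centre is the question addressed here.

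Coverage is given in bins 10 bp apart to 4000 bp on either side of the centre. Its unit is the authors' scaled fragment coverage per site. The antibodies differ, so the level of one mark against the other is no measure of amounts. The tests between the marks use measures of shape, from which any scaling factor of a library cancels. A background added to all bins does not cancel in ratios taken without subtraction of the flank, such as the height over the flank. Its part in the differences between the marks was not tested. Ratios of one mark's coverage to the other's, and the distance at which they cross, keep the scaling and are given as descriptions. Libraries did not all sit with their group. Vector H3K4me3 replicate 3 lay close to the netrin-1 libraries in height. Netrin-1 H3K27me3 replicate 3 lay above all other H3K27me3 libraries in the central ranges. Distances below 0 lie on what the tables call the negative side. Whether sites were turned to the direction of transcription is not given in the sources used here.

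Both marks were enriched at the sites in every library, as the name of the class says, but to different heights. Coverage between 350 and 1000 bp from the centre was divided by the flank, that is, coverage between 3500 and 4000 bp. For H3K4me3 this ratio was 8.83, 8.29 and 13.7 in vector replicates 1, 2 and 3. It was 11.5, 13.8 and 13.7 in netrin-1 replicates 1, 2 and 3. For H3K27me3 the 3 vector replicates stood at 1.52, 1.45 and 1.74 and the 3 netrin-1 replicates at 2.34, 2.92 and 3.90. No H3K27me3 library reached the lowest H3K4me3 library. On the log2 scale the H3K27me3 ratio was lower than the H3K4me3 ratio by 2.67 in vector cells and by 2.12 in netrin-1 cells. With the mark labels permuted within each cell line, the mean difference of -2.40 gave p = 0.005 in a two-sided exact permutation test, the lowest that 400 arrangements allow, and 0.0083 after adjustment over 5 measures of shape. Within 1 cell line the smallest possible p is 0.1, which both cell lines reached (exact permutation test).

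**Figure D1:**
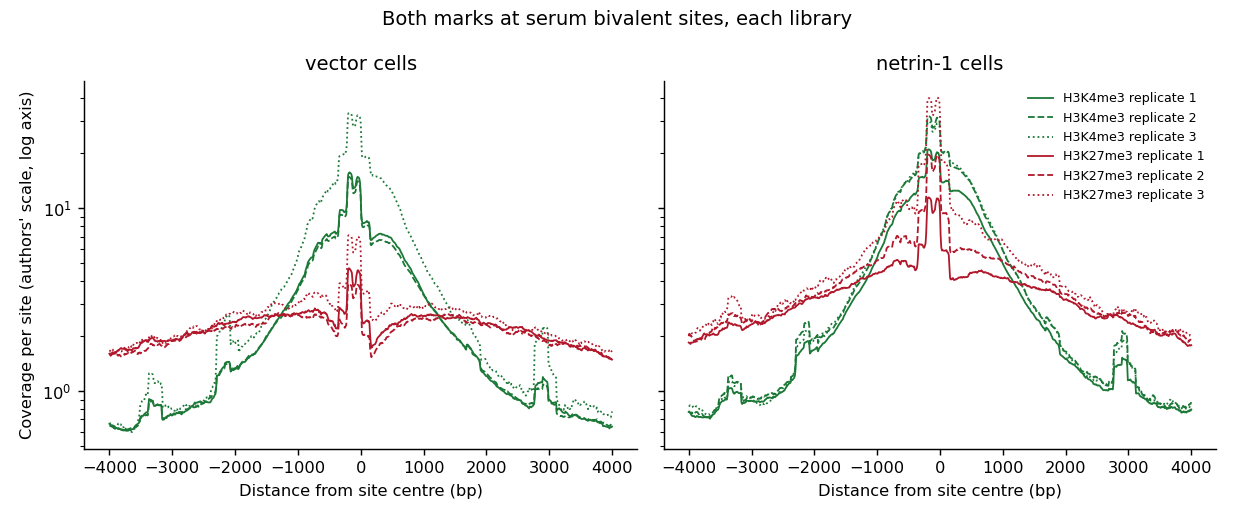
Coverage per site of H3K4me3 (green) and H3K27me3 (red) against distance from the site centre in bp, on a log axis, in vector cells (left) and netrin-1 cells (right), with 1 line per library. H3K4me3 forms a steep peak that falls below H3K27me3 about 1300 bp from the centre in vector cells, while H3K27me3 is broad and, in vector cells, lower just to the right of a narrow central feature than on the shoulder about 1000 bp out.

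The balance of the marks turned over with distance. In vector cells the mean H3K4me3 coverage was 4.30 times the mean H3K27me3 coverage within 350 bp of the centre and 2.67 times it from 350 to 1000 bp. From 1000 to 2000 bp the ratio was 0.916, and in the flank it was 0.405. In netrin-1 cells the same ratio was 1.50 within 350 bp and 1.63 from 350 to 1000 bp, then 0.741 from 1000 to 2000 bp and 0.385 in the flank. Averaged over whole ranges, mean H3K4me3 coverage therefore exceeded mean H3K27me3 coverage in the ranges within 1000 bp and was below it in those beyond. This was so in both cell lines. From 2000 bp outwards this order held in all 9 pairs of libraries of each cell line. From 1000 to 2000 bp the log2 ratio ran from -0.39 to 0.22 over the 9 vector pairs, so the order there depended on the libraries, and from -0.75 to -0.17 over the netrin-1 pairs. Among the 9 pairs of libraries of netrin-1 cells the log2 ratio within 350 bp ran from -0.48 to 1.68, so the order of the marks there depended on the libraries, while all 9 pairs of vector cells lay between 1.17 and 3.13. The ratios and the distance of the crossing depend on the scaling of the libraries. The group means crossed at 1330 bp on both sides in vector cells, and at 1090 bp on the negative and 1060 bp on the positive side in netrin-1 cells. Over the 9 pairs of an H3K4me3 and an H3K27me3 library, the crossing lay between 1110 and 1560 bp in vector cells and between 540 and 1340 bp in netrin-1 cells, so the ranges of the cell lines overlapped.

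**Figure D2:**
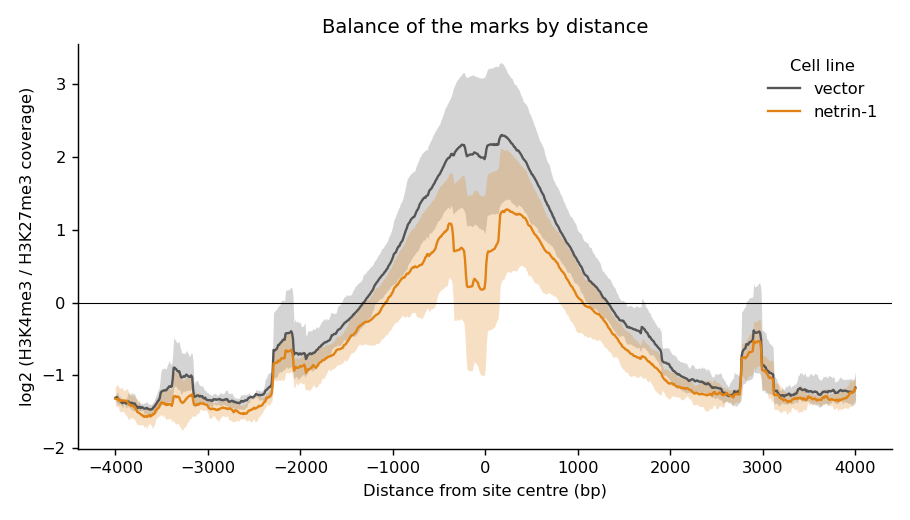
The log2 ratio of H3K4me3 to H3K27me3 coverage against distance from the centre in bp. Lines are ratios of the means of 3 libraries, and bands span the 9 pairs of libraries of a cell line. Both lines cross 0 between 1000 and 1400 bp from the centre and lie below it in the flanks, and the bands of the cell lines overlap over most of the profile.

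The change of this balance with netrin-1 was largest in the innermost range, which holds the narrow central feature described below. It was not distinguishable from the spread between libraries in any of the 5 ranges. The log2 ratio of H3K27me3 to H3K4me3 was higher in netrin-1 cells by 1.52 within 350 bp, by 0.71 from 350 to 1000 bp, by 0.31 from 1000 to 2000 bp, by 0.14 from 2000 to 3500 bp and by 0.073 in the flank. With the cell line labels permuted within each mark, exact permutation p values ran from 0.24 in the innermost range to 0.7 in the flank, and each was 0.7 after adjustment over the 5 ranges. The innermost value was 1.68 on the negative side alone and 1.22 on the positive side alone. Leaving out 1 library moved the innermost value over both sides between 0.97 and 1.82. The lower of these was obtained without netrin-1 H3K27me3 replicate 3, and without vector H3K4me3 replicate 3 it was 1.02. From 350 to 1000 bp these libraries left 0.44 and 0.39 when each was taken out, and from 1000 to 2000 bp 0.20 and 0.15. From 2000 to 3500 bp they left 0.091 and 0.0072, and in the flank 0.032 and 0.026. With the flank subtracted the 4 inner values were 2.31, 1.57, 0.78 and 0.44, with adjusted exact permutation p values of 0.59 to 0.7.

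H3K27me3 reached farther than H3K4me3. Of the coverage above the flank between 350 and 3500 bp, H3K4me3 had 36.2%, 37.3% and 32.4% beyond 1000 bp in vector replicates 1, 2 and 3, and 33.5%, 32.3% and 31.4% in the netrin-1 replicates. H3K27me3 had 72.6%, 74.3% and 66.3% there in the vector replicates and 60.6%, 54.9% and 47.8% in the netrin-1 replicates. The marks did not overlap in either cell line, with a mean difference of 28.9 percentage points (exact permutation p = 0.005, adjusted p = 0.0083). The difference was 35.8 points in vector cells and 22.0 points in netrin-1 cells. Subtracting the flank assumes that it holds no signal of the sites, which is doubtful for H3K27me3, since its coverage was still falling there.

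A second measure of reach was the midway distance, at which coverage first fell below the level midway between the flank and the mean from 350 to 500 bp, averaged over both sides. For H3K4me3 it was 940, 960 and 840 bp in vector replicates 1, 2 and 3 and 890, 850 and 855 bp in the netrin-1 replicates. For H3K27me3 the vector replicates gave 2880, 2940 and 2330 bp and the netrin-1 replicates 1920, 1540 and 1180 bp. The midway distance was thus longer for H3K27me3 than for H3K4me3 in all libraries, by 1803 bp in vector cells and 682 bp in netrin-1 cells. Over both cell lines the difference of 1242.5 bp gave an exact permutation p of 0.005 (adjusted p = 0.0083). In vector libraries H3K27me3 was highest, outside the central feature, at 700 bp or farther from the centre. The reference range of 350 to 500 bp missed that maximum, which lowers the midway level and lengthens the distance. With 350 to 650 bp as reference the marks differed by 1141 bp (exact permutation p = 0.005), and the cell lines in H3K27me3 by -1102 bp (exact permutation p = 0.1).

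Within H3K27me3 both measures of reach separated the cell lines. The outer share was lower in netrin-1 cells by 16.7 points, or by 9.58 points without subtraction of the flank, and the midway distance averaged 2717 ± 336 bp in the 3 vector libraries and 1547 ± 370 bp in the 3 netrin-1 libraries (mean ± SD). The exact permutation p was 0.1 for both, the smallest that 3 libraries against 3 allow, and 0.2 after adjustment over 10 tests. Coverage itself was not lower in the outer ranges. From 2000 to 3500 bp the vector replicates had 2.06, 1.99 and 2.15 and the netrin-1 replicates 2.55, 2.68 and 2.91, so the shorter midway distance went with a higher shoulder and not with less outer coverage. For H3K4me3 the midway distance averaged 913 ± 64.3 bp in vector and 865 ± 21.8 bp in netrin-1 cells (SD over 3 libraries each), with overlap (exact permutation p = 0.4, adjusted p = 0.5). The H3K4me3 difference of -48.3 bp was -85 bp without vector replicate 3 (exact permutation p = 0.1, adjusted p = 0.17) and -25 bp without vector replicate 2. Whether the marks differed in these changes was tested, here and below, with the cell line labels permuted within each mark. Such permutation assumes no cell line difference in either mark, which is more than equal change in both. The difference between the marks in midway distance changed by -1122 bp from vector to netrin-1 cells (exact permutation p = 0.085 over 400 arrangements, adjusted p = 0.16 over 5 measures), and that in outer share by -13.8 points (exact permutation p = 0.125, adjusted p = 0.16). Without subtraction of the flank the latter was -5.36 points (exact permutation p = 0.37), and with all bins from the centre it was -20.8 points (exact permutation p = 0.105).

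**Figure D3:**
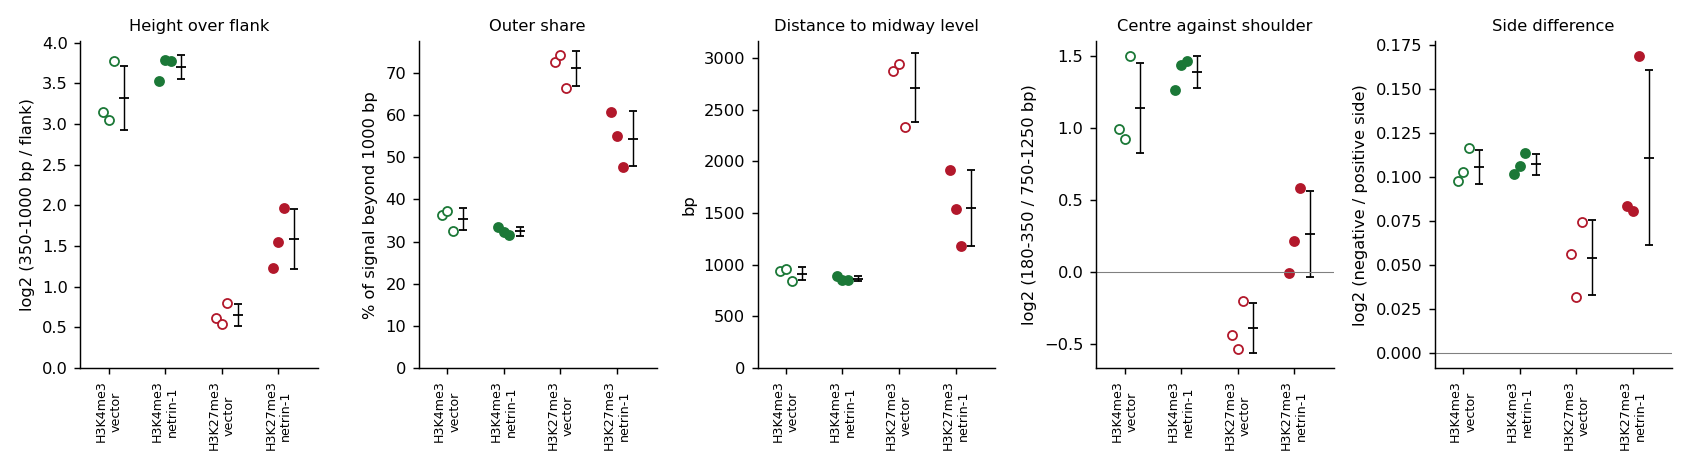
Shape measures at bivalent sites in each library (open circles vector, filled circles netrin-1, green H3K4me3, red H3K27me3), with the mean and SD of 3 libraries beside them. From left to right: log2 of coverage from 350 to 1000 bp over the flank, percent of signal beyond 1000 bp, midway distance in bp, log2 of coverage near the centre over the shoulder, and log2 of the negative over the positive side. The marks do not overlap in the first 4 panels and overlap in the last.

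Just to the positive side of the central feature, H3K27me3 was lower than on the shoulder in vector cells, while H3K4me3 was higher. Within the feature H3K27me3 was not low, and the highest bin of each vector H3K27me3 library lay there, at -190 bp. Coverage from 180 to 350 bp on the positive side, outside the narrow central feature, was divided by coverage in the 500 bp around 1000 bp on the same side, a measure chosen after the profiles had been seen. For H3K27me3 this ratio was 0.737, 0.690 and 0.871 in vector replicates 1, 2 and 3. All 3 vector libraries thus had less H3K27me3 from 180 to 350 bp than on the shoulder, on the positive side. In the netrin-1 replicates the ratio was 0.995, 1.16 and 1.49. There replicates 2 and 3 had more from 180 to 350 bp than on the shoulder, and replicate 1 about as much. For H3K4me3 the ratio was 1.99, 1.90 and 2.83 in the vector and 2.40, 2.71 and 2.76 in the netrin-1 replicates, above 1 in all 6. The log2 ratio was lower for H3K27me3 than for H3K4me3 by 1.53 in vector cells and by 1.13 in netrin-1 cells (exact permutation p = 0.005 over both cell lines). With a reference range of 500 to 1000 bp the mean difference between the marks was -0.83 in place of -1.33 (exact permutation p = 0.005). The H3K27me3 groups did not overlap, with a log2 difference of 0.65 between netrin-1 and vector cells (exact permutation p = 0.1, the smallest possible, and 0.2 adjusted over both marks). The difference between the marks in this change was 0.40 (exact permutation p = 0.34). It was 0.22 without vector H3K4me3 replicate 3 and 0.25 without netrin-1 H3K27me3 replicate 3.

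On the positive side the position of the H3K27me3 shoulder followed the same split. In a running mean over 11 bins, the highest H3K27me3 coverage outside the central feature on the positive side lay at 1100, 1370 and 1110 bp in vector replicates 1, 2 and 3, and at 650, 420 and 490 bp in the netrin-1 replicates. On the negative side it lay at -720, -1310 and -700 bp in the vector and at -690, -570 and -570 bp in the netrin-1 replicates. There the nearest libraries of the cell lines, at -700 and -690 bp, were in neighbouring bins. The search began 420 bp from the centre, so netrin-1 replicate 2 had no maximum of its own on the positive side and fell from the innermost bin searched. H3K4me3 did so on both sides in all 6 libraries. Along the flank-ward fall the marks of netrin-1 cells ran more alike. The correlation of log2 mean coverage between the marks, across bins from 350 bp outwards, was 0.99 on the negative and 0.96 on the positive side in netrin-1 cells, against 0.86 and 0.75 in vector cells. Neighbouring bins share fragments, so these correlations describe the curves only.

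Both marks were higher on the negative side, by a factor of 1.02 to 1.12. Between 350 and 2000 bp, the log2 ratio of the negative to the positive side was 0.098, 0.10 and 0.12 for H3K4me3 in vector replicates 1, 2 and 3 and 0.10, 0.11 and 0.11 in the netrin-1 replicates. For H3K27me3 it was 0.056, 0.032 and 0.074 in the vector and 0.084, 0.081 and 0.17 in the netrin-1 replicates. All 12 values lay above 0. The excess on the negative side was found from 350 to 1000 bp and was smaller or reversed beyond. From 350 to 1000 bp the H3K4me3 value ranged from 0.13 to 0.17 over the 6 libraries and the H3K27me3 value from 0.10 to 0.33, while from 1000 to 2000 bp they ranged from 0.00091 to 0.062 and from -0.015 to 0.023. From 2000 to 3500 bp H3K4me3 was lower on the negative side in all 6 libraries, by 0.0062 to 0.097. In the flank it was lower there in all 6 as well, with log2 ratios of -0.30 to -0.087, of which vector replicate 3 gave the lowest and the other 5 libraries lay at -0.13 or above. H3K27me3 ranged from -0.0022 to 0.042 from 2000 to 3500 bp and from -0.034 to 0.088 in the flank. The marks did not differ distinguishably in this measure (log2 difference -0.024, exact permutation p = 0.22, adjusted p = 0.275). That rests on 1 library, since without netrin-1 H3K27me3 replicate 3 the difference was -0.038 with an exact permutation p of 0.005 (adjusted p = 0.0063). With other ranges or with the flank subtracted the difference had the opposite sign and an adjusted p of at least 0.094 by the same exact permutation test.

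In the averages over sites, the side difference and height were larger at bivalent than at non-bivalent sites of the same mark in every library. The libraries share the same sites, so the p-values below refer to libraries and not to sites. Whether many or few sites carry these differences was not tested. At non-bivalent H3K4me3 sites the log2 ratio of the sides was -0.0064 to -0.00087 in vector and 0.011 to 0.019 in netrin-1 libraries. Bivalent sites exceeded them by 0.10 on average, in 6 of 6 libraries (exact sign-flip permutation p = 0.031, the smallest that 6 libraries allow, adjusted p = 0.047 over 6 tests). For H3K27me3 the excess was 0.083, also in 6 of 6 libraries (exact sign-flip permutation p = 0.031, adjusted p = 0.047), with bins 200 bp apart in the non-bivalent table. The log2 ratio of the 350 to 1000 bp range to the flank was higher at bivalent sites by 1.31 for H3K4me3 and by 0.54 for H3K27me3, in 6 of 6 libraries each (exact sign-flip permutation p = 0.031, adjusted p = 0.047). Whether the flank lies outside the H3K27me3 domains of either class was not tested. The outer share of H3K4me3 did not separate the classes. It was higher at bivalent sites by 3.59 points, in 4 of 6 libraries (exact sign-flip permutation p = 0.125, adjusted p = 0.125). Without subtraction of the flank it was lower by 9.43 points (exact sign-flip permutation p = 0.031, adjusted p = 0.0375).

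In the averages over sites, the narrow feature at the centre was built of the same steps in both marks. Whether these steps come from many sites or from a few was not tested. Coverage rose at 3 places, near -350, -214 and -73 bp, and fell at 3 places, near -136, 3 and 148 bp, in all 12 libraries. Each rise had a fall about 1 block length on, of 0.80 to 1.37 times its size over the 36 blocks, and the feature was described as 3 overlapping blocks. The first H3K27me3 block of vector cells fell by 1.17 to 1.37 times its rise and the last by 0.80 to 0.82 times. The windows around these steps were set after the profiles had been seen. Block lengths, from the centroid of a rise to that of its fall, were 211 to 223 bp over the 36 blocks of the 12 libraries, with a median of 217 bp. The inferred fragment lengths of the 10 libraries with a single solution were 204 to 210 bp, shorter than every block. They were searched only within a preset range that also covers the block lengths, and the windows bound the block lengths. Their closeness is therefore a description and no test. The starts of the first and second block were 134 to 139 bp apart, and those of the second and last 139 to 143 bp apart. The 2 summits of the profile lay where neighbouring blocks overlapped. Between them was a trough at -110 or -120 bp in every library.

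In both marks the second block was the largest, while the shares of the first and last block differed between the marks. The second block held 57.5 to 58.4% of the summed rise in the 6 H3K4me3 libraries and 57.5 to 61.3% in the 6 H3K27me3 libraries. The first block held 23.0 to 24.3% for H3K4me3 and 17.4 to 20.2% for H3K27me3, and the last block 17.3 to 19.5% and 20.4 to 23.9%. The marks thus overlapped in the second block and not in the first and last. The size of the feature differed widely. The summed rise for H3K4me3 was 10.7, 10.2 and 23.6 coverage units in vector replicates 1, 2 and 3 and 10.9, 19.9 and 16.6 in the netrin-1 replicates, with overlap. For H3K27me3 it was 3.57, 2.70 and 5.95 in the vector and 9.01, 17.1 and 38.6 in the netrin-1 replicates, without overlap. Over the 9 pairs of an H3K4me3 and an H3K27me3 library the ratio of the rises was 1.72 to 8.74 in vector cells and 0.283 to 2.20 in netrin-1 cells, so the ranges overlapped.

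**Figure D4:**
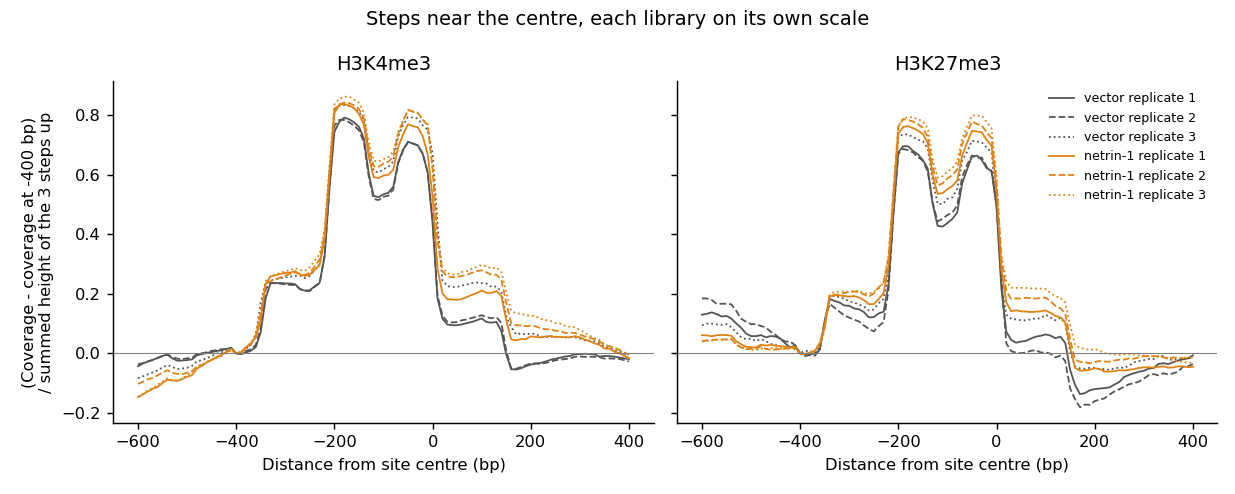
Coverage above its value at -400 bp, divided by the summed height of the 3 steps up, against distance from the centre in bp, for H3K4me3 (left) and H3K27me3 (right), with 1 line per library (grey vector, orange netrin-1). The steps lie at the same distances in all 12 libraries and both marks, with a trough at -110 or -120 bp between the summits.

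The strength of the feature relative to its surroundings depended on how it was measured. Coverage from -350 to 150 bp was divided by coverage in the 500 bp on either side. For H3K4me3 vector replicates 1, 2 and 3 stood at 1.69, 1.71 and 1.99 and the netrin-1 replicates at 1.56, 1.80 and 1.70. For H3K27me3 it was 1.40, 1.29 and 1.64 in the vector and 1.74, 2.12 and 2.76 in the netrin-1 replicates. In vector cells all H3K27me3 libraries lay below all H3K4me3 libraries (log2 difference -0.32, exact permutation p = 0.1). In netrin-1 cells the marks overlapped, with a log2 difference of 0.36 (exact permutation p = 0.2). The mean over both cell lines was 0.023 (exact permutation p = 0.915), and -0.064 to 0.10 with 1 library left out. With the flank subtracted, H3K27me3 was the higher mark in both cell lines, by 0.32 in vector and 0.65 in netrin-1 cells (exact permutation p = 0.1 each), with a mean of 0.49 (exact permutation p = 0.005, adjusted p = 0.0063). The change between the cell lines in how the marks differed was 0.68 on the log2 scale, with an exact permutation p of 0.035 and 0.16 after adjustment over 5 measures. With a surround of 250 bp the change was 0.61, with an exact permutation p of 0.01 and 0.05 after adjustment, and with the flank subtracted it was 0.33, with an exact permutation p of 0.11 and 0.16 after adjustment. The measures of height, reach and side difference given above leave out the bins within 350 bp of the centre. These bins hold the 3 blocks except for the foot of the first rise, and the balance values of the innermost range include them.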

How the data were processed

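The authors deposited 4 tables of coverage signal, of which the 2 at bivalent sites were the main data and the 2 at non-bivalent sites a comparison. Per the file headers each holds 1 coverage column per library, so replicates were not pooled, and no column gives tags by strand. A strand offset was therefore not analysed here. Named in the submitters' processing notes are mm9 as build and, without versions, HOMER, MACS2, Picard and BWA. The sources used here do not state the choice of sites, the handling of duplicates or the scaling of coverage. The tables name no site, coordinate or gene.

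Depth is not given. All values of a column were whole multiples of 1 step, to within 0.02 of a step. Under HOMER's scaling to tag number and fragment length, 7 site numbers up to 20000 fitted all 12 columns. They were 2590 and its multiples. Fragment lengths were searched only within a preset range.

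Values per library were computed with Python 3.11.15, numpy 2.4.6 and pandas 2.3.3, and tested with two-sided exact permutation tests or sign flips, with Benjamini-Hochberg adjustment within the family named beside each value. A threshold of 0.05 was used. The permutation test between the marks was tried on simulated profiles for outer share only, with libraries drawn independently of one another. The other measures and tests were not simulated. The distance ranges, summits and steps named were set by rule, since no gene is named in the tables. The measures, ranges and tests were chosen with earlier results of these data known.

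Replicate numbers are shared by all groups. Deviations of log2 coverage from the group means correlated at 0.68, 0.51 and 0.93 between same-numbered H3K27me3 libraries of the 2 cell lines, all above 0.1, and were taken as pairs in an alternative, although vector replicate 2 reached 0.91 with netrin-1 replicate 1. For H3K4me3 the values were 0.94, -0.84 and 0.77. Between the marks they were 0.59, 0.81 and 0.85 in vector and 0.88, -0.35 and 0.78 in netrin-1 cells. Numbers were therefore not taken to pair H3K4me3 libraries, or the marks over both cell lines. Alternatives were other flanks, ranges, reference levels and sides, subtraction of the flank, permuting both marks together, the replicate block and leaving out each library.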

Additional observations from a re-analysis of the deposited data

How the results depend on the processing

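Of 458 recomputed values over 35 results, 411 kept their direction and their side of the 0.05 threshold, 27 kept their direction but no longer passed it, 5 came to pass it and 15 changed sign. Comparisons of the cell lines within 1 mark, and permutation of both marks together, have a smallest possible p of 0.1. Blocks of 3 pairs have one of 0.25. None of these could pass in any setting, so their part of the 411 shows direction only. With the replicate block (libraries of 1 number as a pair), the differences between the marks were -2.40 in height, 28.9 points in outer share and 1242.5 bp in midway distance, each with an exact sign-flip permutation p of 0.031, the smallest possible, and 0.052 adjusted. Leaving out 1 library moved these between -2.49 and -2.28, 27.4 and 30.6 points, and 1149 and 1339 bp, all still past the threshold. Leaving out 1 library from a comparison of site classes takes the smallest possible p to 0.0625, so none could pass. The values were 1.27 to 1.37 and 0.097 to 0.10 for height and side difference of H3K4me3, and 0.42 to 0.62 and 0.065 to 0.096 for H3K27me3.

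The side difference between the marks was 0.027 from 350 to 1000 bp, 0.012 from 1000 to 3500 bp, 0.012 within 2000 bp and 0.042 with the flank subtracted, against -0.024, and -0.038 to -0.016 with 1 library left out. The change of the H3K4me3 side difference with netrin-1 was 0.0014 and became -0.016, -0.0030, -0.083 and -0.0033 in the same settings, and -0.0026 to 0.0068 with 1 library left out. The difference between the cell lines in how the marks differ in sides was 0.29 within 2000 bp (exact permutation p = 0.005, adjusted p = 0.025), against 0.055, and that range holds the 3 central blocks. The central feature differed between the marks by 0.49 with the flank subtracted and by -0.064 to 0.10 with 1 library left out. Its change between the cell lines was 0.61 with a surround of 250 bp and 0.33 with the flank subtracted, against 0.68. At H3K4me3 sites the classes differed in the central feature by -0.30 with the flank subtracted (exact sign-flip permutation p = 0.031, adjusted p = 0.0375), against -0.21 (p = 0.094), and in outer share by -9.43 points without subtraction. For H3K27me3 the classes differed in sides by -0.0064 from 1000 to 3500 bp. The cause was not tested. The dip measure and its alternatives were chosen after seeing the data.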

Other observations

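Away from the centre the H3K4me3 profile of bivalent sites held 3 further short blocks, whose limits were set after the profiles had been seen. Whether many or few sites carry them was not tested. Near -3360, -2100 and 2900 bp, H3K4me3 coverage in the block was 1.24 to 1.63, 1.15 to 1.69 and 1.32 to 2.29 times that on either side of it. In each of the 3 the highest value came from vector replicate 3, and without that library the highest values were 1.38, 1.40 and 1.89. H3K27me3 in the same libraries was 1.04 to 1.32 and 0.984 to 1.10 times its surroundings in the first and last of these blocks, with the value of 1.32 in netrin-1 replicate 3, and at most 1.04 times in the other.

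Libraries of the 2 marks that carry the same replicate number moved together in 5 of 6 cases. Deviations of log2 coverage from the group mean, across bins, correlated between the marks at 0.59, 0.81 and 0.85 for vector replicates 1, 2 and 3 and at 0.88, -0.35 and 0.78 for netrin-1 replicates 1, 2 and 3. Vector replicate 3 had the highest coverage of its group within 1000 bp in both marks, and netrin-1 replicate 1 the lowest. Libraries with different numbers also correlated, up to 0.81 between vector H3K4me3 replicate 1 and vector H3K27me3 replicate 2, and the values are given as a description only.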
